A study of Mus musculus with 6 samples.

Results

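The 32 genes described here make up the route by which mouse cells show peptides on major histocompatibility complex (MHC) molecules: 22 genes of class I and its peptide supply and 10 genes of class II. They were taken as all array probes whose single gene symbol was on this list, which gave 61 of the 45281 probes. Of these, 43 probes of 26 genes were bright enough to be tested among 12046 genes in all. RNA came from central retina of rd1/rd1 mice, whose rods and then cones degenerate because of a mutation in Pde6b, a subunit of rod phosphodiesterase. The groups were 3 samples at 8 months and 3 samples at 2 months of age, all rd1/rd1 with no treatment named, each a pool of 3 to 6 punches from the centre of the retina. The titles number the 2 month samples 1 to 3, while the descriptions call titles 1 and 2 both replicate 1 and title 3 replicate 2. Numbers here follow the titles, and whether the first 2 come from separate pools is not settled by the labels. Neither the number of animals per pool nor their sex or background strain is given in the labels, so p-values measure the spread between these samples, and the H2 haplotype of the mice, which changes the sequence of class I and class II genes, is not known here.

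Class I molecules are heavy chains paired with beta-2 microglobulin, and almost every cell can make them. They carry peptides that the proteasome cuts in the cytosol, that the TAP transporter brings into the endoplasmic reticulum and that tapasin helps to load, and CD8 T cells and natural killer cells read them. Class II molecules are made mainly by microglia, macrophages, dendritic cells and B cells, load peptides in endosomes with the help of the invariant chain and the DM proteins, and are read by CD4 T cells. Interferon gamma raises both routes, through the transactivators NLRC5 for class I and CIITA for class II. In a healthy retina both are low, and microglia and glia can raise them during degeneration.

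Class I promoters are known for a shared upstream block of sites for interferon, NF-kappaB and MHC-specific factors, and the RefSeq start-site windows of the members were read for its letters. The table gave 27 start-site windows for 24 of the 32 genes, on GRCm38.p6, and the 250 bases before each start were read on both strands for 5 motifs. These were the interferon regulatory factor pair GAANNGAAA, the gamma-activated site TTCNNNGAA, the NF-kappaB site (GGG, any 2 bases, then TTCCC), the cyclic AMP response core TGACG and the NF-Y site CCAAT. The sequences below are those of the heavy chains H2-K1, H2-D1 and H2-Q7, which carry the block, of the light chain B2m, of the immunoproteasome subunit Psmb10, whose change was the largest of the members, and of the class II chain H2-Aa for contrast. They run 5′ to 3′ toward the start, and capitals mark every match to a motif on either strand.
H2-K1, chr17:34000334-34000583 (minus strand): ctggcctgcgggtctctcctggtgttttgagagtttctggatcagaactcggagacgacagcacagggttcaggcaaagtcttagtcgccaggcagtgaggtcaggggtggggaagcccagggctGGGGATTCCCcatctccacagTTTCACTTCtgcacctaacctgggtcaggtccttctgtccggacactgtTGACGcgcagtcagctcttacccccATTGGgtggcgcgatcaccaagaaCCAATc
H2-D1, chr17:35262844-35263093 (plus strand): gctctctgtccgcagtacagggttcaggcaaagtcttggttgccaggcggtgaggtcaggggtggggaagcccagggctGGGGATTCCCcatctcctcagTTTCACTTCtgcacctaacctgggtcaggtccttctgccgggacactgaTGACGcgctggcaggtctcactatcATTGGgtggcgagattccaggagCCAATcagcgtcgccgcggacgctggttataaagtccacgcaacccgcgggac
H2-Q7, chr17:35438905-35439154 (plus strand): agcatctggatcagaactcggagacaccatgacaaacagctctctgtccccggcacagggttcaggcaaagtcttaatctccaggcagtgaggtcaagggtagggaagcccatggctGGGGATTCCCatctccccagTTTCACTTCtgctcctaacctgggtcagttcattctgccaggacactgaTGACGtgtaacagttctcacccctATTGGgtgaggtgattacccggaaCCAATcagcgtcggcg
B2m, chr2:122147437-122147686 (plus strand): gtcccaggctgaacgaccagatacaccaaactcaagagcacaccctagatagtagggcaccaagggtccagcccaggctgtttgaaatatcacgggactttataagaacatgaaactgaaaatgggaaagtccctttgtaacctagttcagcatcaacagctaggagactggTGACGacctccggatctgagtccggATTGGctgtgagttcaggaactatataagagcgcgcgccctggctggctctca
Psmb10, chr8:105938393-105938642 (minus strand): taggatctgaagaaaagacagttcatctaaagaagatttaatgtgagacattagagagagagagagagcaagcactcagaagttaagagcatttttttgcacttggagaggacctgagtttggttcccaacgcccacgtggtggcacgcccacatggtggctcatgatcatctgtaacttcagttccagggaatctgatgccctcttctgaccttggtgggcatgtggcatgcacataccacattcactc
H2-Aa, chr17:34287824-34288073 (minus strand): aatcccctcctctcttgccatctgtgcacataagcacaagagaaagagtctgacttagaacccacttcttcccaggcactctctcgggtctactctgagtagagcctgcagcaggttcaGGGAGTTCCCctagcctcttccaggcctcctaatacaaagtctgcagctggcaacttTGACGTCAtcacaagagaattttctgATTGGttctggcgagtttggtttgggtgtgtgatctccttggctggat

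In H2-K1 and H2-D1 the first base of the NF-kappaB match lay 21 bases before that of the interferon regulatory factor pair and 70 bases before that of the cyclic AMP response core. The same 2 distances were 20 and 69 bases in H2-Q7. H2-Q6 also held the NF-kappaB match and the pair, 21 bases apart. The pair in this spelling was found in 5 of the 24 genes (H2-D1, H2-K1, H2-M3, H2-Q6 and H2-Q7), and in 6.31% of the 32851 windows of all genes. H2-T22 holds tttcactttc and H2-T23 holds tttctctttc, the pair with a longer gap than in the spelling read, and these were not counted. NF-kappaB matches lay in 6 genes, H2-Oa and H2-Aa among them, and in 1.53% of all windows. The CCAAT letters were in 19 of the 24 genes and in 33.85% of all windows, the cyclic AMP response core in 10 genes and 17.77%, and the gamma-activated site in 3 genes (H2-DMb2, H2-M3 and Psmb8) and 7.02%. Counted by window, as the shares of all windows are, the pair was in 6 of the 27 member windows and the NF-kappaB site in 7. By the same count CCAAT was in 20, the core in 12 and the gamma-activated site in 3. H2-Aa had TGACG on both strands in 1 palindrome, the only overlap of matches in the sequences shown, and an NF-Y match nearer the start. Of the 5 spellings read, B2m had the core and the NF-Y site only, and Psmb10 had none in this window. B2m also holds gaaactgaaa and gggaaagtccc, the letters of the pair and of the NF-kappaB site with a longer gap, which were not counted. The starts of Psmb9 and Tap1 lie 226 bases apart on opposite strands, so their windows hold the same core and NF-Y letters. A match describes letters and no binding was measured here.

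Values are on the deposited log2 scale, where each array has a median of 7.19 and values close to it are close to background. Changes are 8 months minus 2 months, tested with limma over all 12046 genes with Benjamini-Hochberg adjustment. The comparison asked which genes differ between 8 and 2 months of age, a late and an earlier stage of degeneration. All samples were rd1/rd1, so stage of degeneration and ageing cannot be told apart. Differences in antigen presentation genes were small. No member passed at an adjusted p below 0.05, against 27 genes or 0.224% of all tested genes, and the smallest adjusted p of a member was 0.209. At an unadjusted p below 0.05, 5 of the 26 tested members were higher at 8 months and 0 lower, where 10.4% of all tested genes had such a p, 5.1% higher and 5.34% lower. The values of the 2 ages did not overlap for 4 members, Psmb10, Tap2, H2-Q8 and H2-Ab1, all higher at 8 months, against 7.45% of all genes higher and 7.59% lower. Changes were above 0 for 23 of the 26, against 50.2% of all genes, with a median of 0.064 beside 0.00048 over all genes. They were above 0 for 18 of the 19 tested genes of class I and its supply, with a median of 0.095, and for 5 of the 7 tested class II genes. With no filter on dim probes, 27 of 32 members had changes above 0 (50.1% of all 19057 genes), 5 were higher and 0 lower at an unadjusted p below 0.05 (4.17% and 4.12% of all genes), and 0 passed adjustment (0.0367% of all genes did). Without that filter 5 members did not overlap and were higher and 1 lower, against 6.53% and 6.51% of all genes. The smallest change of any gene called in the whole comparison was 0.36 in size, and of the members only Psmb10 reached it. The lowest and the highest end of the members' 95% intervals were −0.23 and 0.64, so a change above 1.56-fold lay outside the interval of every tested member.

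**Figure D1:**
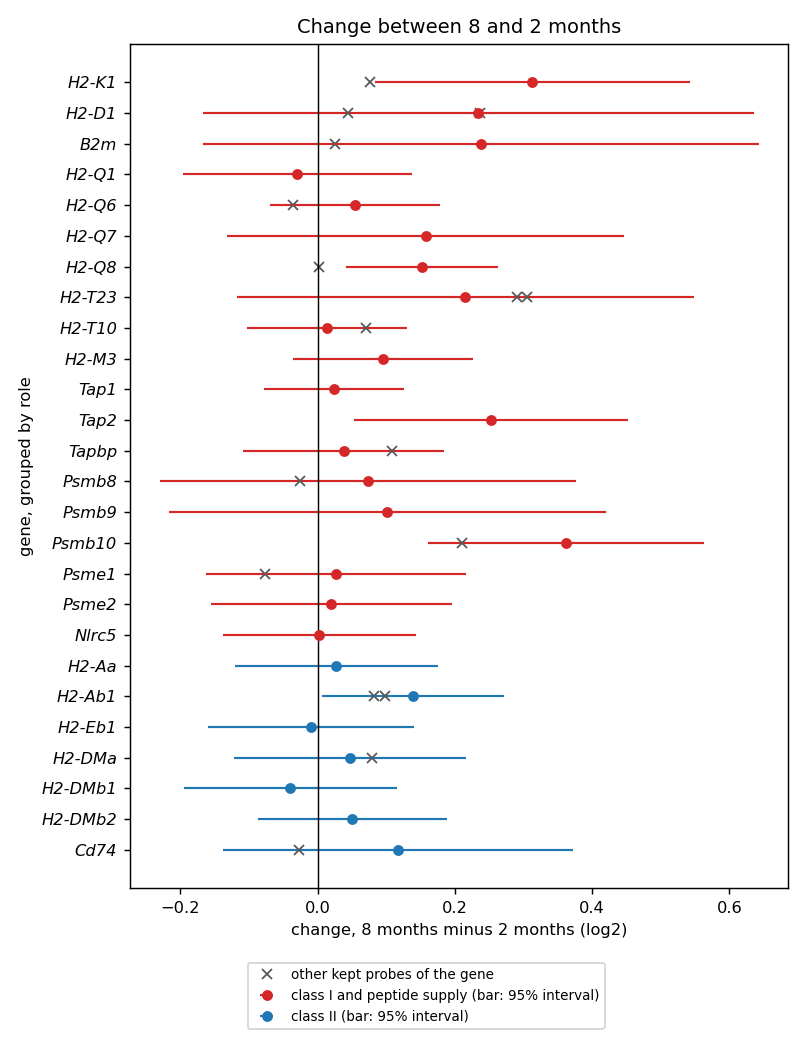
Change of each of the 26 tested members, 8 months minus 2 months on the log2 scale (x axis), with its 95% interval from limma, in rows grouped by role, and the changes of other kept probes of the same gene as crosses. The intervals of Psmb10, H2-K1, Tap2, H2-Q8 and H2-Ab1 lie above 0, and those of the other 21 include 0.

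The class I chains were expressed at both ages. H2-K1, a classical heavy chain, was at 8.50, 8.31 and 8.47 in the 8 month samples, against 8.06, 8.31 and 7.97 in the 2 month samples. The lowest 8 month sample and the highest 2 month sample were equal to 2 decimals, and the other 8 month samples were higher than all 2 month ones. Its change was 0.31 (SE 0.0978, 1.24-fold, 95% interval 0.084 to 0.54, limma adjusted p = 0.316), and 0.077 at its other kept probe. H2-D1, the second classical heavy chain, was at 10.28, 10.17 and 10.59 in the 8 month samples, against 9.96, 10.49 and 9.90 in the 2 month samples. Both ages overlapped, with replicate 2 the highest of the 2 month samples and above 2 of the 8 month samples. Its change was 0.23 (SE 0.171, 95% interval −0.17 to 0.64, limma adjusted p = 0.735), with 0.045 to 0.24 over its 3 kept probes. B2m, the light chain of all class I molecules, was at 12.09, 11.88 and 11.82 in the 8 month samples, against 11.65, 12.08 and 11.35 in the 2 month samples. The lowest and the second highest of all 6 values were both from 2 months, so the change of 0.24 (95% interval −0.17 to 0.64) was within the spread of that age. The other kept probe of B2m had a change of 0.026.

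**Figure D2:**
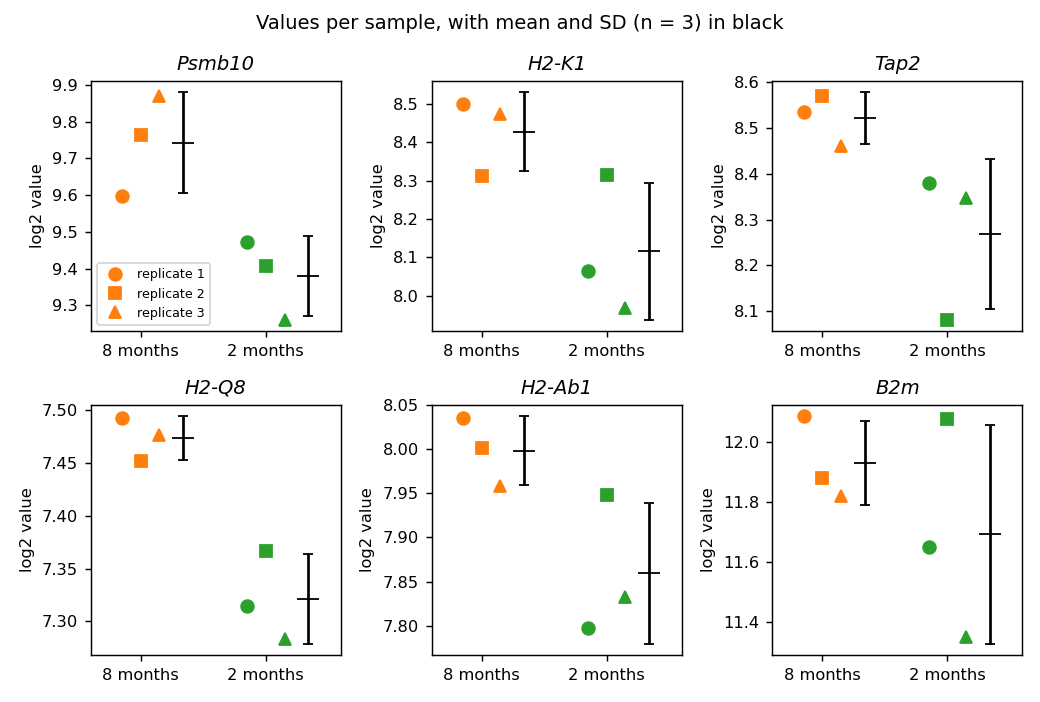
Log2 values of 6 members in each sample, with 8 months on the left and 2 months on the right of each panel and the mean and SD (n = 3) in black. The ages do not overlap for Psmb10, Tap2, H2-Q8 and H2-Ab1, H2-K1 meets at 8.31, and for B2m the 8 month samples span less than the 2 month samples, with SDs of 0.140 at 8 months and 0.366 at 2 months (axes do not start at 0).

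Non-classical class I genes sit in the same region of chromosome 17, and several of them, but not all, present narrower sets of peptides. Of the 9 listed, 7 were tested and 6 of those had changes above 0, from −0.03 to 0.22. H2-T23, which codes for Qa-1, a ligand of inhibitory receptors on natural killer cells, was at 8.69, 8.51 and 8.80 in the 8 month samples, against 8.40, 8.76 and 8.20 in the 2 month samples. Replicate 2 of the 2 month samples lay above 2 of the 8 month samples, and the change of 0.22 (SE 0.142, limma adjusted p = 0.7) was 0.22 to 0.31 over its 3 kept probes. H2-Q8, a member of the Qa-2 family, was at 7.49, 7.45 and 7.48 in the 8 month samples, against 7.31, 7.37 and 7.28 in the 2 month samples. All 8 month values were above all 2 month values, by little: the change was 0.15 (SE 0.0471, 95% interval 0.042 to 0.26, limma adjusted p = 0.312), and at its other kept probe, close to background, 0.0025. H2-Q7, of the same family, was at 7.99, 7.92 and 7.98 in the 8 month samples, against 7.76, 8.09 and 7.56 in the 2 month samples. The highest and the lowest of its 6 values both came from 2 months, and its change was 0.16 (SE 0.123). H2-M3, which presents formylated bacterial peptides, averaged 7.77 ± 0.045 at 8 months and 7.67 ± 0.0724 at 2 months (SD, n = 3 each), a change of 0.095. H2-Q1, H2-Q6 and H2-T10 stayed between 7.18 and 7.38 in every sample, near the array median, with changes of −0.03, 0.055 and 0.014. H2-Q2 and H2-T22 did not pass the filter. Class I genes are close copies of each other, so a probe may also read a neighbour. The probe sequences were not used here and this was not tested.

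All 5 genes of the immunoproteasome and its cap had changes above 0 at their probe of highest mean, against 50.2% of all genes. Other kept probes of Psmb8 and Psme1 had changes below 0. Of the 5, only Psmb10 had an unadjusted p below 0.05, where 5.1% of all genes were higher with such a p. Psmb10, an inducible catalytic subunit of the immunoproteasome, was at 9.60, 9.76 and 9.87 in the 8 month samples, against 9.47, 9.41 and 9.26 in the 2 month samples. All 3 values at 8 months were above all 3 at 2 months. Its change of 0.36 (SE 0.0859, 1.28-fold, 95% interval 0.16 to 0.56) was the largest among the tested members and did not pass (limma adjusted p = 0.209), and its second probe had one of 0.21. Psmb9, another inducible catalytic subunit, was at 7.88, 7.87 and 7.97 in the 8 month samples, against 7.69, 8.14 and 7.58 in the 2 month samples. Here the 2 month samples held both the highest and the 2 lowest values, and the change was 0.10 (SE 0.136). Psmb8, the third such subunit, averaged 8.63 ± 0.22 at 8 months and 8.56 ± 0.183 at 2 months (SD, n = 3 each), with a change of 0.074 and one of −0.025 at its other kept probe. Psme1 and Psme2, which form the PA28 cap that opens the proteasome, had changes of 0.027 and 0.02, and the other kept probe of Psme1 had one of −0.077.

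Each inducible subunit takes the place of a constitutive one in the assembled core. Psmb10 replaces Psmb7, which was at 11.64, 11.68 and 11.81 in the 8 month samples, against 11.68, 11.81 and 11.66 in the 2 month samples, a change of −0.0064 (SE 0.0663). The log2 difference of Psmb10 minus Psmb7, taken within each sample, was 0.37 higher at 8 months, with all 3 samples of that age above all 3 of 2 months. The exact two-sided permutation test gave p = 0.1, the smallest that 3 against 3 samples allow, and 0.3 after Benjamini-Hochberg adjustment over 3 pairs. For Psmb9 minus Psmb6 and Psmb8 minus Psmb5 the differences were 0.13 and −0.043 (exact permutation p = 0.7 and 0.8, both 0.8 after adjustment). Psmb7, Psmb6 and Psmb5 belong to a list of 14 tested genes of the constitutive proteasome core and other proteasome regulators. Of these, 3 had changes above 0 and 11 below, with a median of −0.056 and none called by limma (0 at an unadjusted p below 0.05). The 3 with the smallest p were Psma4 at −0.19, Psma7 at −0.11 and the regulator Psme3 at −0.15.

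Tap2, one chain of the peptide transporter, was at 8.54, 8.57 and 8.46 in the 8 month samples, against 8.38, 8.08 and 8.35 in the 2 month samples. All 8 month samples were higher, with replicate 2 the lowest of the 2 month samples, and the change was 0.25 (SE 0.0853, 1.19-fold, 95% interval 0.053 to 0.45, limma adjusted p = 0.358). Its partner chain Tap1 was close to background, between 7.27 and 7.31 in every sample (change 0.024), so the probe could show little. Tapbp, which codes for tapasin, had a change of 0.038 (95% interval −0.11 to 0.18) and 0.11 at its other kept probe. Nlrc5, the class I transactivator, had one of 0.0026 (95% interval −0.14 to 0.14) at levels of 7.14 to 7.33. Erap1, the aminopeptidase that trims peptides in the endoplasmic reticulum, did not pass the filter with any of its 3 probes. Of 7 tested chaperones and other peptidases listed with this route, 4 had changes above 0. None was called or had an unadjusted p below 0.05 by limma. Pdia3, a partner of tapasin in the loading complex, was at −0.12, Nrd1 at −0.069 and Tpp2 at 0.065.

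Class II genes were mostly close to background. None of the 7 tested passed by limma, 1 had an unadjusted p below 0.05, and 5 had changes above 0, with a median of 0.047. No class II probe exceeded 8.39 in any sample. H2-Ab1, the beta chain of the I-A molecule, was at 8.04, 8.00 and 7.96 in the 8 month samples, against 7.80, 7.95 and 7.83 in the 2 month samples. The ages did not overlap, although the highest 2 month value came close to the lowest 8 month value, and the change was 0.14 (SE 0.0568, 95% interval 0.0058 to 0.27, limma adjusted p = 0.453), with 0.082 as the smallest of its 3 kept probes. Its partner alpha chain H2-Aa was at 7.25, 7.22 and 7.32 in the 8 month samples, against 7.19, 7.35 and 7.17 in the 2 month samples. These values overlapped, with 2 month replicate 2 the highest of all, and the change was 0.027 (95% interval −0.12 to 0.18). H2-Eb1, the beta chain of the I-E molecule, was at 7.32, 7.29 and 7.30 in the 8 month samples, against 7.25, 7.44 and 7.25 in the 2 month samples, a change of −0.0095. Again 2 month replicate 2 was the highest of all samples.

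Cd74, the invariant chain that guides class II molecules to endosomes, was at 7.55, 7.56 and 7.67 in the 8 month samples, against 7.30, 7.73 and 7.40 in the 2 month samples. The 2 month samples spanned the whole range of the 8 month samples, and the change was 0.12 (SE 0.109), and −0.028 at its other kept probe. Of the genes that exchange the peptide, H2-DMa was at 8.15, 8.36 and 8.39 in the 8 month samples, against 8.20, 8.28 and 8.27 in the 2 month samples, a change of 0.047. The ages overlapped, with both the lowest and the highest value at 8 months. The 2 genes for its partner chain, H2-DMb1 and H2-DMb2, had changes of −0.039 and 0.051 at levels between 7.24 and 7.46. H2-Oa and H2-Ob, which code for the inhibitor of that exchange, and Ciita, the class II transactivator, did not pass the filter. With H2-Q2, H2-T22 and Erap1 they make 6 members whose 10 probes lay between 7.05 and 7.22 in every sample, with changes of −0.061 to 0.058, and such values say nothing about their direction.

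**Figure D3:**
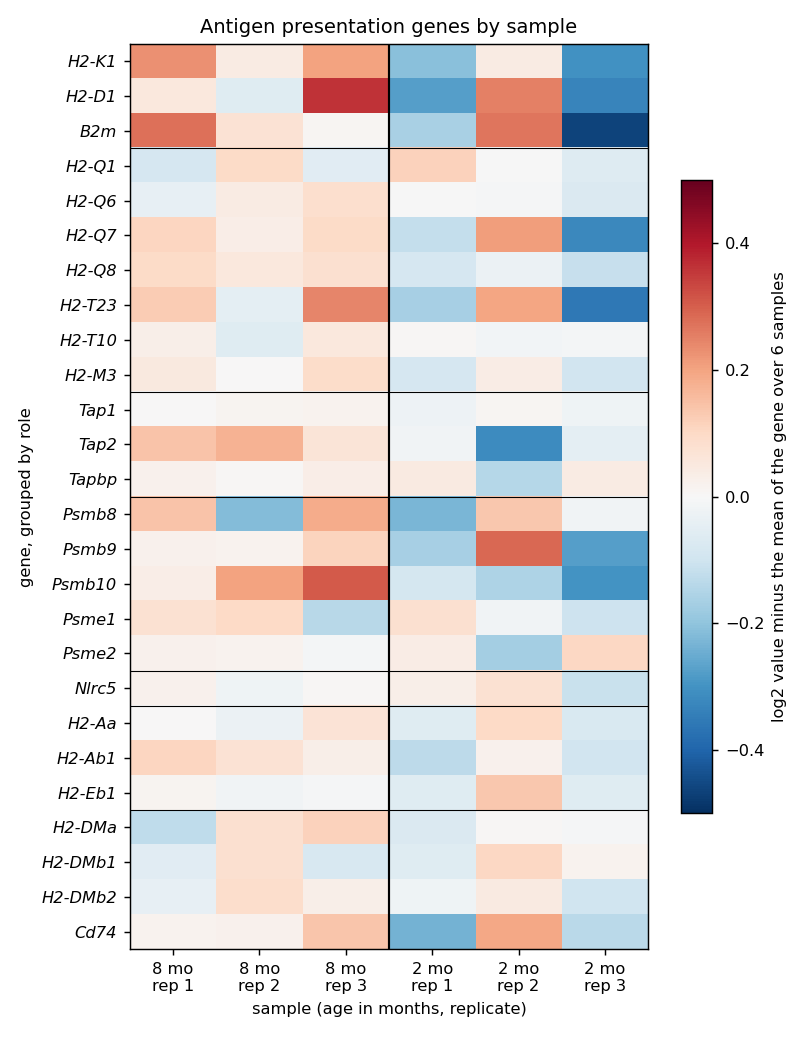
Log2 value of each tested member minus its mean over the 6 samples, in colour, with samples in columns (8 months left, 2 months right) and genes in rows grouped by role. The lowest values of the class I chains, H2-Q7, H2-T23, Psmb9 and Psmb10 lie in 2 month replicate 3, while 2 month replicate 2 reaches or passes the lowest 8 month value for all of these but Psmb10.

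The 2 month samples did not form an even group for these genes. Of the 19 tested class I and supply genes, 11 had their lowest value of all 6 samples in 2 month replicate 3 (57.9%, against 17.3% of all tested genes). In 14 of the 19, 2 month replicate 2 was at or above the lowest 8 month sample, a share near that of all tested genes, 70.8%. Averaged over the 19 genes, the level relative to the mean of all samples was 0.07, 0.024 and 0.091 in the 8 month samples, against −0.069, 0.035 and −0.15 in the 2 month samples. Replicate 2 of 2 months thus lay inside the 8 month range, and the other 2 month samples below it. For the classical chains with B2m the same level was 0.19, 0.016 and 0.19 in the 8 month samples, against −0.21, 0.19 and −0.37 in the 2 month samples. The 3 tested transport and loading genes ran differently in their mean, with 2 month replicate 2 the lowest. It was 0.055, 0.064 and 0.038 in the 8 month samples, against 0.0014, −0.15 and −0.01 in the 2 month samples. Tap2 and Tapbp were lowest in 2 month replicate 2, and Tap1, close to background, in 2 month replicate 1. For the 7 class II genes the level was −0.012, 0.042 and 0.042 in the 8 month samples, against −0.092, 0.085 and −0.064 in the 2 month samples, so the highest and the lowest sample were both from 2 months. The median SD over tested members was 0.061 at 8 months and 0.102 at 2 months, while over all genes it was 0.0697 at 8 months and 0.0762 at 2 months.

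Genes induced by interferon were also lowest in 2 month replicate 3. Those listed, such as the guanylate-binding protein Gbp2, had levels of 0.17, −0.03 and 0.058 in the 8 month samples, against −0.10, 0.17 and −0.27 in the 2 month samples. None of the 15 tested was called, while 3 were higher and 0 lower at an unadjusted p below 0.05 and the median was 0.077. Gbp2 was at 9.69, 9.53 and 9.92 in the 8 month samples, against 9.32, 9.58 and 8.92 in the 2 month samples, a change of 0.44 (SE 0.169, limma adjusted p = 0.42). Replicate 3 of 2 months was the lowest, and replicate 2 of that age lay inside the 8 month range. Oasl2 and Usp18, both induced by interferons, had changes of 0.44 (SE 0.177) and 0.28 (SE 0.107). Of 16 tested interferon receptors, kinases and factors, 8 had changes above 0 and 8 below, and limma called none (0 at an unadjusted p below 0.05). Irf9, Stat3 and Irf1, transcription factors of interferon and cytokine signalling, were at 0.30, 0.27 and 0.15 (limma adjusted p = 0.574, 0.7 and 0.748).

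Factors that bind MHC promoters (RFX and NF-Y subunits and Creb1, a cyclic AMP response factor) had 1 change above 0 and 5 below among 6 tested, and limma called none. Nfyb, an NF-Y subunit, was at −0.17 and was the only one with an unadjusted p below 0.05, while Rfxap, an RFX subunit, was at −0.16 and Creb1 at −0.10. Of 9 endosomal genes of the class II route, 4 had changes above 0 and none was called. Ctsh, a cathepsin, was at 9.72, 9.60 and 9.42 in the 8 month samples, against 9.26, 9.31 and 9.25 in the 2 month samples, the only one of the 9 at an unadjusted p below 0.05. The ages did not overlap, and the change was 0.30 (SE 0.077, limma adjusted p = 0.23). Ctsb, another cathepsin, and Cst3, a cathepsin inhibitor, were at 0.16 and 0.11. Among 4 tested MHC-like genes none was called and 0 had an unadjusted p below 0.05, with the neonatal Fc receptor Fcgrt at −0.21, the vitamin-derivative presenting Mr1 at 0.04 and the lipid-presenting Cd1d1 at 0.022.

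**Figure D4:**
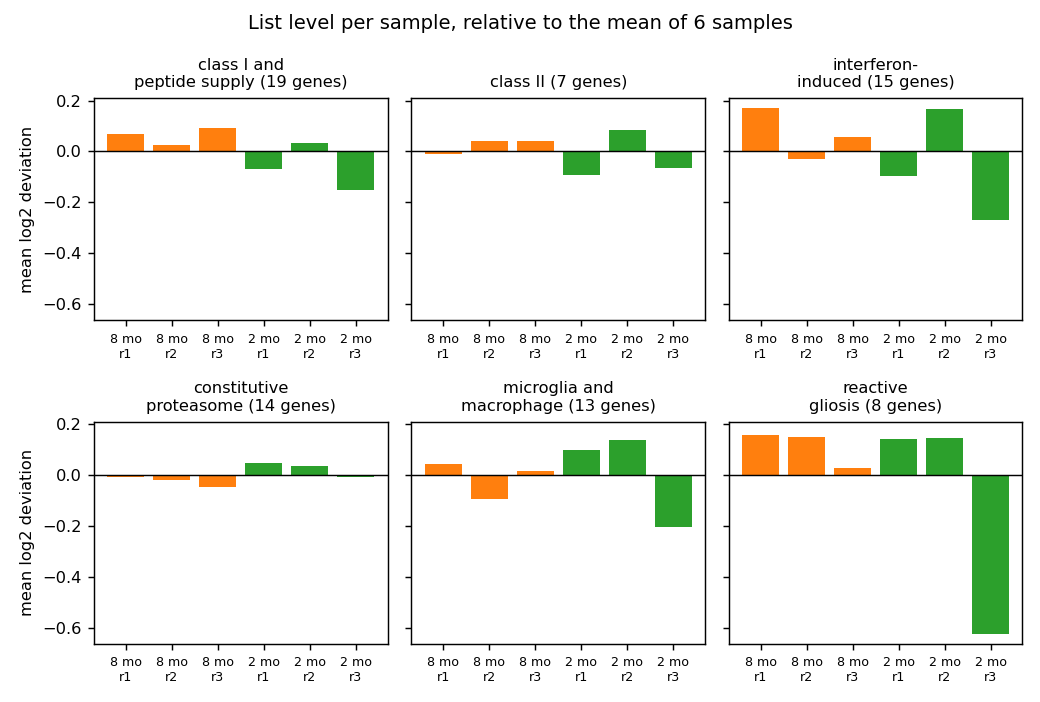
Mean log2 deviation of 6 gene lists in each sample from the mean of all 6 samples (bars from 0, 8 months left in orange, 2 months right in green). In the class I, interferon-induced, microglia and gliosis lists 2 month replicate 3 is the lowest sample, at −0.15, −0.27, −0.20 and −0.62.

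Markers of the cells that could carry these molecules were read in the same samples. In bulk tissue, fewer cells of a type and less RNA per cell cannot be told apart. Retinal genes were present at both ages, with Rlbp1 of Müller glia at 12.43 to 12.89 and Grm6 of bipolar cells at 12.38 to 12.51. Of 15 tested markers of retinal neurons none was called by limma (1 higher and 2 lower at an unadjusted p below 0.05), with a median change of 0.037. Photoreceptor genes were lower at 8 months: 9 of 11 tested had changes below 0, 3 were called lower by limma and 0 higher, and the median was −1.15. Their mean level was −0.38, −0.36 and −0.95 in the 8 month samples, against 0.68, 0.68 and 0.33 in the 2 month samples, so the ages did not overlap and 8 month replicate 3 was the lowest. The 3 called were Arr3, the cone arrestin (−1.55, SE 0.127, limma adjusted p = 0.00936), Gnat2, the cone transducin alpha chain (−0.86, SE 0.0818, limma adjusted p = 0.0169), and Tulp1, a photoreceptor protein of the tubby family (−1.15, SE 0.141, limma adjusted p = 0.0472). Of all genes in the companion and marker lists, these were the only ones called lower. The call was lost for Arr3 without 2 month replicate 1 (limma adjusted p = 0.0795), for Gnat2 without 8 month replicate 1 or 3 or 2 month replicate 1 (0.0622 to 0.118), and for Tulp1 without any 1 sample but 2 month replicate 3 (0.0767 to 0.162). As the mean of its kept probes the change of Tulp1 was −0.55. The part of this difference in the member values was not tested. Of 15 microglia and macrophage markers with a probe, 13 were tested, and their mean level was 0.044, −0.094 and 0.016 in the 8 month samples, against 0.10, 0.14 and −0.20 in the 2 month samples. Csf1r, the growth factor receptor of microglia, was at 7.89, 7.99 and 7.90 in the 8 month samples, against 8.22, 8.42 and 8.12 in the 2 month samples, the lowest p of that list (change −0.32, limma adjusted p = 0.226). It was lower in every 8 month sample, while C1qa was at 0.15 and Tyrobp at 0.13. Ptprc and Itgam, 2 leukocyte markers, stayed below the filter at 7.10 to 7.22. Reactive gliosis genes, 8 tested, were at 0.16, 0.15 and 0.029 in the 8 month samples, against 0.14, 0.15 and −0.62 in the 2 month samples, with Lcn2, a lipocalin of reactive glia, called higher (0.83, SE 0.0929, limma adjusted p = 0.0373). Lcn2 was the only gene of these lists called higher, and leaving out replicate 1 of either age, or the second 8 month sample, ended that call (limma adjusted p = 0.0848 to 0.162). The part of microglia or gliosis in the class I values was not tested.

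Markers of lymphoid and dendritic cells other than Cd8b1 were close to background. No B cell marker of 6 with a probe, and 2 of 9 dendritic cell markers (Siglech and Zbtb46, at 7.22 to 7.49), passed the filter. Of 11 T and natural killer cell markers with a probe, Nkg7, at 7.12 to 7.20, and Cd8b1 passed. Cd8b1 was at 9.65 to 9.95 while its partner Cd8a lay at 7.04 to 7.12 and Cd3e at 7.13 to 7.27. Endothelial genes, which also carry class I, numbered 11 tested with a median change of 0.00037. Genes of tissues outside the neural retina differed between samples as well. Red blood cell genes, 4 tested, were at −0.65, −0.60 and −0.59 in the 8 month samples, against 0.33, 1.29 and 0.22 in the 2 month samples. The pigment epithelium list (11 tested) was at −0.013, −0.10 and −0.66 in the 8 month samples, against −0.048, 0.68 and 0.14 in the 2 month samples, highest in 2 month replicate 2, as was the muscle list. Xist, the RNA that silences an X chromosome in female cells, was at 10.76, 10.48 and 11.08 in the 8 month samples, against 9.40, 8.73 and 11.10 in the 2 month samples, and the Y-linked Eif2s3y was at 7.12, 7.18 and 7.17 in the 8 month samples, against 7.79, 8.27 and 7.10 in the 2 month samples. By these genes 2 month replicates 1 and 2 differed from the other 4 samples, and the part of sex or of admixed tissue in the member values was not tested.

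**Figure D5:**
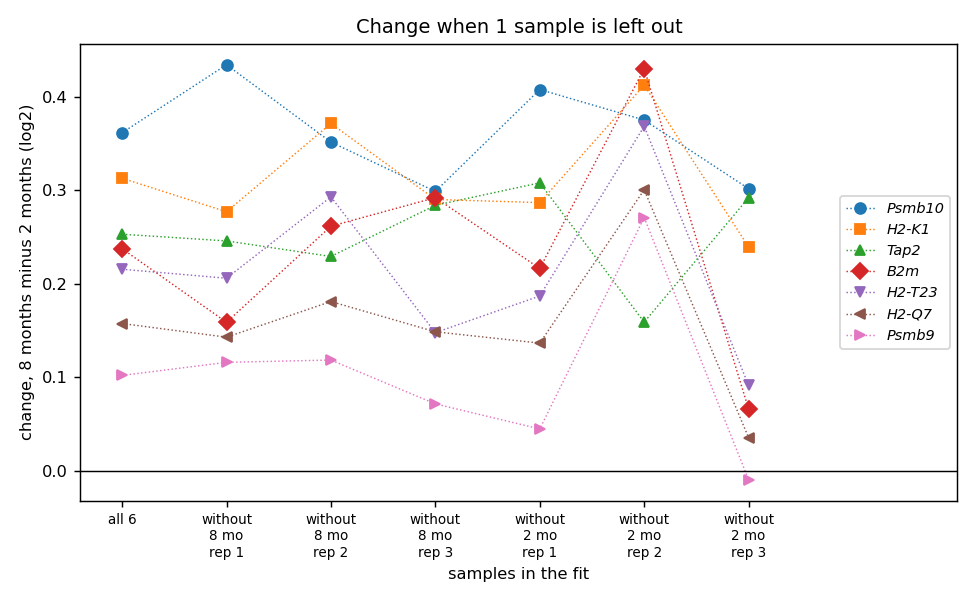
Change of 7 class I members, 8 months minus 2 months on the log2 scale (y axis), with all 6 samples and with each sample left out (x axis). Without 2 month replicate 3 the changes of B2m, H2-T23, H2-Q7 and Psmb9 are 0.066, 0.091, 0.035 and −0.0099, while Psmb10 keeps 0.30.

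Which sample was left out set the size of most class I changes. Without 2 month replicate 2 the median change of the class I and supply genes was 0.16, and 11 of the 26 members had an unadjusted p below 0.05, all higher at 8 months, against 4.45% of all genes higher in that fit. Without 2 month replicate 3 that median was 0.067 and 4 members (15.4%) had such a p, all higher, against 6.01% of all genes higher and 12.2% in either direction. B2m had a change of 0.43 without replicate 2 and of 0.066 without replicate 3 of that age, H2-T23 of 0.37 and 0.091, and H2-Q7 of 0.30 and 0.035. Psmb9 had one of 0.27 without replicate 2 and of −0.0099 without replicate 3. H2-D1 had one of 0.42 without 2 month replicate 2, of 0.13 without 2 month replicate 3 and of 0.11 without 8 month replicate 3. Over the 6 fits that leave out 1 sample, changes lay between 0.30 and 0.43 for Psmb10, 0.24 and 0.41 for H2-K1, and 0.13 and 0.18 for H2-Q8. Tap2 ran the other way, with 0.16 without 2 month replicate 2 and 0.31 without 2 month replicate 1. Psmb8 had −0.023 without 2 month replicate 1 and 0.20 without 8 month replicate 2. Cd74 had a change of 0.24 without 2 month replicate 2 and one of −0.025 without 8 month replicate 3. The class II median was between −0.0003 and 0.083. Among these 6 fits the fewest members with an unadjusted p below 0.05 were 3 (11.5%), without 8 month replicate 1 or 2. All 3 were higher, against 4.51% and 5.02% of all genes higher in those fits. With 2 month replicates 1 and 2 both left out, so that 1 sample stood for 2 months and was assumed to vary like the 8 month samples, the class I median was 0.14, the class II median 0.09, and 8 members had an unadjusted p below 0.05, all higher, against 4.06% of all genes higher. With the mean of 2 month samples 1 and 2 counted as 1 sample, an alternative chosen after seeing the data because the descriptions share a number, the class I median was 0.11, 5 members had such a p, all higher (4.34% of all genes were), and the change of Psmb10 was 0.39 (limma adjusted p = 0.329). In none of these fits did limma call a member after adjustment, and the smallest adjusted p was 0.202.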

How the data were processed

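Column-purified, DNase-treated total RNA was labelled as biotinylated cRNA for Illumina single-colour bead arrays, per the labels' protocols. The deposited table holds 1 value per probe and sample on a log2 scale, read from its range of 6.98 to 14.48. Its sorted columns agree within 0.0031 at every rank, as after a quantile-type normalization. Software, background correction and transform: not given in the sources used here. Probes above the 50th percentile of their array on at least 3 arrays were kept (22458) and named through GEO's platform annotation. The kept probe of highest mean stood for a gene. Ages, from the sample titles, were compared with limma 3.58.1 in R 4.3.3 (lmFit, eBayes, 4 residual and 3.31 prior degrees of freedom, no covariate), two-sided, with Benjamini-Hochberg adjustment over 12046 genes and a threshold of 0.05. The procedure was tested on simulated data. The number of arrays limits the precision. Members, lists and motifs were chosen with earlier results of these data known. Every member is named, and of each of the 7 companion pathway lists the called genes or up to 3 with the smallest p. Cell type marker lists had no such rule: their called genes are named, and the other markers, members given per sample beyond the rule (an unadjusted p below 0.05, or class II) and Psmb7 were chosen after their values were seen. Of 246 companion and marker genes, 17 matched no probe symbol and were not used here. Promoter letters are from RefSeq, GRCm38.p6. Exact permutation tests used scipy 1.17.1.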

Additional observations from a re-analysis of the deposited data

How the results depend on the processing

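No member passed adjustment under any alternative that was run: median centring, cyclic loess, no filter, a filter at the 75th percentile, the mean of all kept probes, a prior variance with an intensity trend, the replicate number as a block, each sample left out, 2 month replicates 1 and 2 both left out, and, added after seeing the data, their mean counted as 1 sample. The smallest adjusted p of a member was 0.128, for Psmb10 with the stricter filter. With the mean of all kept probes 3 members had an unadjusted p below 0.05, all higher, against 5.34% of all genes higher. In that fit 1 member changed sign. The counts over all genes, 19 higher and 8 lower, were 5 and 2 with no filter, 38 and 35 with the filter at the 75th percentile, 44 and 48 with the trend, 5 and 2 without both 2 month samples, and 4 and 2 with their mean as 1 sample. With the replicate block 14 genes were higher and 18 lower. Leaving out 1 sample gave 2 to 14 higher and 0 to 20 lower, the lowest without 2 month replicate 1 and the highest without 2 month replicate 3. In the companion and marker lists 1 gene (Lcn2) was called higher and 3 photoreceptor genes (Arr3, Gnat2 and Tulp1) lower. These counts were 0 and 1 with no filter, 2 and 12 with the stricter filter, 2 and 12 with the trend, 6 lower with the block, 2 higher without both 2 month samples, 0 higher with their mean as 1 sample, and 0 to 1 higher and 0 to 7 lower with 1 sample left out. The class I median of 0.095 was 0.22 with the stricter filter, which tested 11 of its genes, and 0.067 (without 2 month replicate 3) to 0.16 (without 2 month replicate 2) with 1 sample left out. The class II median of 0.047 was −0.0003 to 0.083 with 1 sample left out. Changes of single members moved by less than the spread between replicates in 368 values and by more in 10, mostly without both 2 month samples. With 1 sample left out and the same probe kept, a change cannot move by more than that spread. The trend and the block leave the change itself as it was. The 368 values are therefore no measure of how stable the changes are. The replicate numbers of the titles, from which the descriptions differ at 2 months, were not taken to pair the samples, since the correlations of deviations of same-numbered samples were 0.024, 0.14 and 0.16. Every sample correlated best with its own number, which is a hint from the data only. Levels near the array median of 7.19 limit what can be measured for Tap1, Nlrc5, H2-Q1, H2-Q6, H2-T10 and most class II genes.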
